A study of Mus musculus with 300 samples.

Results

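G6pc, Pck1, Pklr and Slc2a2 are 4 genes that govern how liver and kidney cells make, burn and release glucose, and they are described here as 4 of the 18193 genes measured on 300 mouse arrays. They were chosen by name. Each was read from its annotated probe set with the highest mean over all arrays: G6pc (Entrez gene 14377) and Slc2a2 (20526) had 1 probe set each, and Pck1 (18534) and Pklr (18770) had 3 each. All 4 were tested in every tissue, since no filter on dim genes was applied. Opposite signs in liver and kidney were named when the genes were put together, so that direction is given here as a description and is no independent evidence.

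The series asked what agonists of the peroxisome proliferator-activated receptors (PPARs) do to mouse tissues. Mice were dosed by mouth with WY14643 (an agonist of PPARalpha), GW501516 (of PPARdelta) or rosiglitazone (of PPARgamma), each at 10 mg/kg, or with vehicle, and tissues were taken on days 4, 8 and 15. Liver, kidney, heart and skeletal muscle came from 75 animals, with 5 animals per compound and day and 10 per vehicle and day. The sample labels name WY14643 throughout, while the design text of the series has WY16453 in its place, and the sample labels were followed. The labels used here give no strain, sex, age or vehicle, and no time of day for collection. Replicates are separate animals, so p-values measure the spread between the animals of these groups, and the 3 compounds share their vehicle animals.

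Glucose-6-phosphatase, whose catalytic subunit G6pc encodes, frees glucose from glucose 6-phosphate in the last step of both glycogen breakdown and gluconeogenesis. Pck1, cytosolic phosphoenolpyruvate carboxykinase, makes the phosphoenolpyruvate from which new glucose is built. Pklr, the pyruvate kinase of liver and red cells, uses phosphoenolpyruvate up again in the last step of glycolysis. Slc2a2 is GLUT2, the low-affinity transporter through which glucose crosses the membrane of hepatocytes and of proximal tubule cells. Liver and kidney cortex are the organs that release glucose into blood: insulin lowers and glucagon raises transcription of G6pc and Pck1 in liver, while Pklr is raised by sugar and insulin.

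The sequences just before the transcription start show what a reader would look for in these genes, namely the nuclear receptor hexamer (AGGTCA), the core of the cAMP response element (ACGTCA) and the TATA box (TATAAA). They are from RefSeq on GRCm38.p6, 250 bases each, 5′ to 3′ on the plus strand, and capitals mark matches to these letters on either strand. All 4 members had a record (5 records, since Pklr has more than 1 start); the Pklr sequence shown is that of the downstream start, and the upstream one is named only.
G6pc (chr11:101367466-101367715): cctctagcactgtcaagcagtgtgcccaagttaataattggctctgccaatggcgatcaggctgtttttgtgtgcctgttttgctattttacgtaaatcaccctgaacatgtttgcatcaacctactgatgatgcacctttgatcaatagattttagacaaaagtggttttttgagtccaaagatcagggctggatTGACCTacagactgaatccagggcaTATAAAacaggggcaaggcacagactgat
Pck1 (chr2:173152823-173153072): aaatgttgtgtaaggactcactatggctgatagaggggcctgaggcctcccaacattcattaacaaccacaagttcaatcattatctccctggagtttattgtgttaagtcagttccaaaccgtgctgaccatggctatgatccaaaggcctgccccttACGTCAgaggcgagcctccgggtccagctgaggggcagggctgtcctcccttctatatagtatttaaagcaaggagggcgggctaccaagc
Pklr (chr3:89136373-89136622): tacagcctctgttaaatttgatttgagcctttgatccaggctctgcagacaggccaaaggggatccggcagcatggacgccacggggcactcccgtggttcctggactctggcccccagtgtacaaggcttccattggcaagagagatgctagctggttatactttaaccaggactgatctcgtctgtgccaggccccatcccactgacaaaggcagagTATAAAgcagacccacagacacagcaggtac
Slc2a2 (chr3:28697653-28697902): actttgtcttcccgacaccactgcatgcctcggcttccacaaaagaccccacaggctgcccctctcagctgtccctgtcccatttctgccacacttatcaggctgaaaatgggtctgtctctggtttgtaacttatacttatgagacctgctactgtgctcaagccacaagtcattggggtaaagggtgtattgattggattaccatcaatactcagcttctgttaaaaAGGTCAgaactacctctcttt
G6pc held the nuclear receptor hexamer in reverse (TGACCT), its first base 54 bases before the start, and a TATA box 29 bases before it. Pck1 held the cAMP element core 91 bases before its start. Slc2a2 held a nuclear receptor hexamer 21 bases before its start, and Pklr a TATA box 31 bases before its downstream start and a nuclear receptor hexamer 151 bases before the upstream one. Among 32851 RefSeq promoters of this length, 14.0% held the nuclear receptor hexamer, 6.47% the cAMP element core and 12.4% the TATA box. The E-box (CACGTG) was searched in the same way, as were the forkhead site (GTAAACA), the glucocorticoid receptor hexamer (TGTTCT) and the D-box (TTATGNAA), and none of them was in the 5 windows. The matches did not overlap and are a description of the letters. Only the spellings given here were searched, so variant forms of these sites are not covered.

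Values are log2 intensities on which each tissue had been scaled by itself, so levels were compared within a tissue and only changes between tissues. Arrays correlated with the mean of the rest of their group at a median r of 0.995 in liver and 0.996 in kidney. Those least like their group within each tissue were kidney GW501516 day 8 replicate 1 (r = 0.927), heart rosiglitazone day 4 replicate 1 (r = 0.957), skeletal muscle WY14643 day 4 replicate 3 (r = 0.975) and liver WY14643 day 4 replicates 5 and 2 (both r = 0.984). Mean changes in liver, in kidney and between them whose call changed without these arrays are given both ways. So are the heart and muscle calls named below. In liver the 7 hepatocyte markers measured, of 8 listed, lay 6.4 to 8.45 above the array median (log2), as the label has it. Mouse numbers in the labels link the organs of an animal, and for 75 of 75 animals the deviations of gene levels in liver and kidney correlated better with their own number than with other animals of the group.

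In vehicle animals all 4 genes were abundant in liver. Mean log2 levels over 30 liver arrays were 13.51 ± 0.16 (SD) for Pklr, 13.34 ± 0.19 for Pck1, 12.93 ± 0.09 for Slc2a2 and 12.71 ± 0.34 for G6pc. By their means over all 75 liver arrays, treated ones included, they lay above 95% to 98.9% of all genes. In kidney Pck1 lay at 12.40 ± 0.18, Slc2a2 at 11.51 ± 0.15, G6pc at 11.35 ± 0.18 and Pklr at 9.43 ± 0.18 (SD, n = 30 each). By the means over all 75 kidney arrays Pck1 was above 99.3% of genes and Pklr above 82.3%. Probe sets differ in how brightly they report, so the order of genes on this scale is not an order of transcript number. In heart G6pc, Slc2a2 and Pklr lay below the array median, by 1.57, 1.06 and 0.21, and in skeletal muscle by 2.63, 2.51 and 1.39.

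G6pc fell in liver with all 3 compounds, averaged with equal weight over the 3 days against vehicle of the same day. It fell by 0.97 ± 0.11 (SE; log2) with GW501516, to 50.9% of vehicle, by 0.74 ± 0.11 with WY14643, to 59.7%, and by 0.43 ± 0.11 with rosiglitazone, to 74.5%. Of the 15 treated livers per compound, 15 with GW501516, 14 with WY14643 and 13 with rosiglitazone lay below the same-day vehicle mean. The adjusted p from limma, over all genes, was 4.02e-10, 7.60e-07 and 0.00421, under the threshold of 0.05 used for every call here. In whole liver, fewer cells of a kind and less RNA per cell cannot be told apart. At that threshold 13.9% of all genes were called with GW501516, 11.2% with WY14643 and 16.2% with rosiglitazone.

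The liver arrays show how the G6pc values separate by day. On day 4 the GW501516 livers read 11.57, 11.60, 11.62, 11.66 and 11.77, all below the vehicle range of 11.78 to 12.88 (median 12.55). WY14643 livers read 11.18, 11.45, 12.27, 12.31 and 12.59 that day, and the lowest pair of these are the arrays that stand apart. The other readings lay inside the vehicle range, so the WY14643 fall of G6pc on day 4 rests largely on that pair. Rosiglitazone livers read 11.96 to 13.04 and overlapped vehicle. On day 8 the WY14643 livers read 11.72, 12.10, 12.23, 12.27 and 12.29, again all below vehicle (12.46 to 13.10, median 12.90). GW501516 read 11.47, 11.75, 11.82, 12.29 and 12.63, and rosiglitazone 12.09, 12.22, 12.29, 12.38 and 12.67. Both groups had a single array inside the vehicle range. On day 15 vehicle spanned 12.23 to 13.21 (median 12.77), GW501516 10.95 to 12.33, WY14643 11.22 to 12.39 and rosiglitazone 11.45 to 12.60. Below every vehicle liver of that day lay 4 of 5 livers with GW501516, 4 of 5 with WY14643 and 3 of 5 with rosiglitazone, so each group overlapped vehicle.

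**Figure D1:**
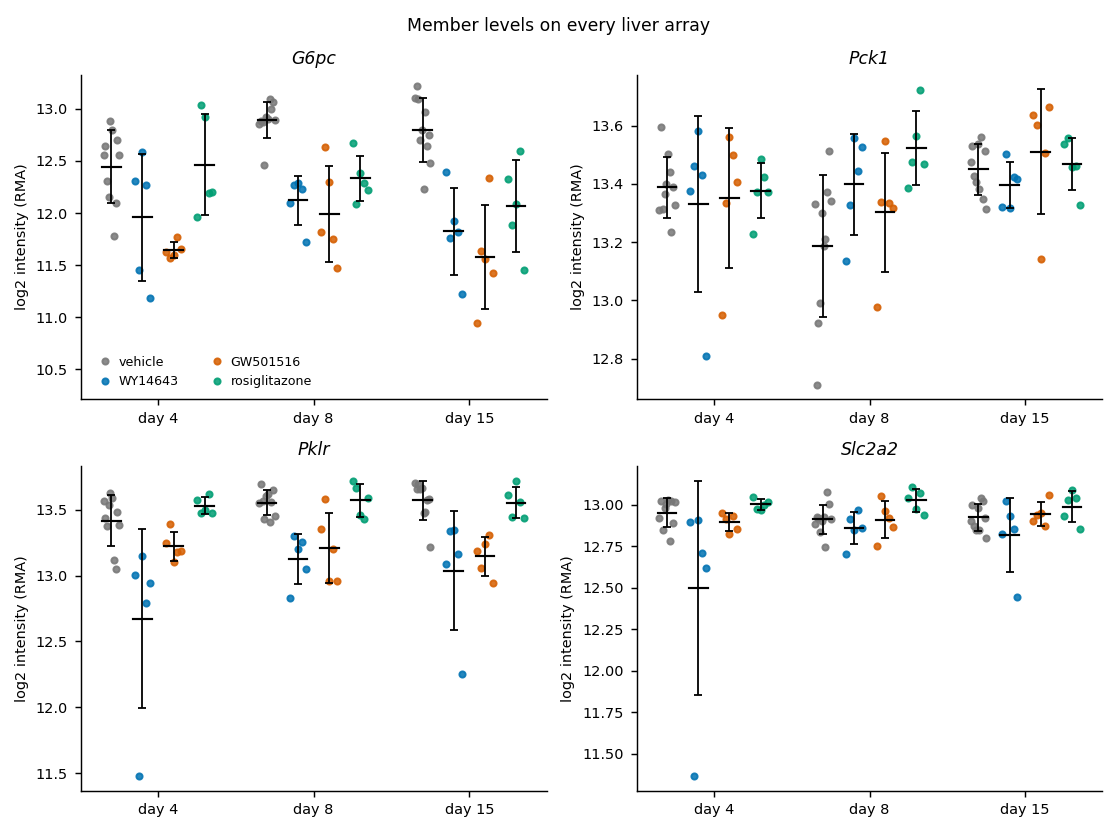
Log2 intensity (RMA, vertical axes) of the 4 genes on each of the 75 liver arrays, by day and compound; points are animals, horizontal bars the group mean and error bars the SD. The group mean of G6pc lies below that of vehicle with each compound by day 8, and that of Pklr with WY14643 and GW501516. For Pklr (11.48) and Slc2a2 (11.37), 1 WY14643 day 4 array lies far below the rest.

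By day, G6pc in liver fell by 0.80, 0.90 and 1.22 with GW501516 on days 4, 8 and 15 (adjusted p = 0.0150, 9.62e-04 and 1.01e-05, limma). With WY14643 the change was -0.49 on day 4, which was not called (adjusted p = 0.123), and G6pc fell by 0.77 on day 8 and 0.97 on day 15 (adjusted p = 0.00749 and 7.71e-04). With rosiglitazone it was 0.017 on day 4 (adjusted p = 0.979), and G6pc fell by 0.56 on day 8 and 0.73 on day 15 (adjusted p = 0.0424 and 0.0133). The share of all genes called on days 4, 8 and 15 was 1.35%, 8.83% and 4.42% with GW501516, 6.45%, 6.32% and 2.86% with WY14643, and 1.23%, 12.8% and 5.34% with rosiglitazone. The difference between day 15 and day 4 was itself not called for G6pc with any compound: it was -0.75 with rosiglitazone, -0.49 with WY14643 and -0.42 with GW501516. Both WY14643 values that use day 4 include the liver arrays that stand apart, and they are not given without them.

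The state of the circadian clock genes moved with these groups. The first component of 16 measured clock genes, which held 60.9% of their variance in liver, averaged -0.58 in vehicle on day 4, 1.41 on day 8 and 0.63 on day 15. It averaged -0.58 with GW501516, -0.94 with rosiglitazone and -0.20 with WY14643 on day 8, while on day 4 WY14643 stood at 1.39. Vehicle G6pc itself was 12.45 ± 0.35 on day 4, 12.90 ± 0.17 on day 8 and 12.80 ± 0.31 on day 15 (SD, n = 10 each). With the first 2 clock components as covariates the liver change of G6pc was -0.88 with GW501516 and -0.74 with WY14643, both still called, and -0.31 with rosiglitazone, no longer called (adjusted p = 0.782). Without day 8 the rosiglitazone change was -0.36 (adjusted p = 0.125).

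In kidney the same gene was not called lower with any compound. It rose by 0.34 ± 0.052 with rosiglitazone, to 127% of vehicle (adjusted p = 9.59e-06), and by 0.18 ± 0.052 with GW501516, to 113% (adjusted p = 0.0201). With WY14643 the change was -0.012 ± 0.052, with a 95% interval from -0.11 to 0.091. In this organ 1.52% of all genes were called with rosiglitazone, 6.79% with GW501516 and 1.74% with WY14643. All 15 rosiglitazone kidneys lay above the same-day vehicle mean, 12 of 15 with GW501516 and 10 of 15 with WY14643.

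Kidney G6pc with rosiglitazone read 11.66, 11.67, 11.69, 11.79 and 11.80 on day 4, all above the vehicle range of 11.02 to 11.65. It read 11.55, 11.59, 11.65, 11.75 and 11.92 on day 8 (vehicle 11.12 to 11.61) and 11.42, 11.61, 11.76, 11.79 and 11.82 on day 15 (vehicle 11.21 to 11.68), with some overlap on both days. By single days the rise of 0.46 on day 8 was called (adjusted p = 0.00200). The changes of 0.32 on day 4 and 0.26 on day 15 were not (adjusted p = 0.792 and 0.481, limma), on days when 0% and 0.132% of all genes were called, against 0.753% on day 8. GW501516 kidneys read 11.41 to 11.76 on day 4, 11.03 to 11.58 on day 8 and 11.42 to 11.84 on day 15, overlapping vehicle each time. Their rise lost its call with the clock components as covariates (0.21, adjusted p = 0.0762). The mean of 9 proximal tubule markers ran over 11.91 to 12.29 in vehicle kidneys, 11.20 to 12.25 with GW501516, 12.02 to 12.24 with rosiglitazone and 11.86 to 12.18 with WY14643. Deviations of G6pc had r = 0.44 with it over 75 kidneys (rho = 0.42, permutation p = 5.0e-05 and 2.3e-04, adjusted over 60 correlations 2.14e-04 and 9.86e-04; r = 0.35 without the 2 outermost arrays).

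**Figure D2:**
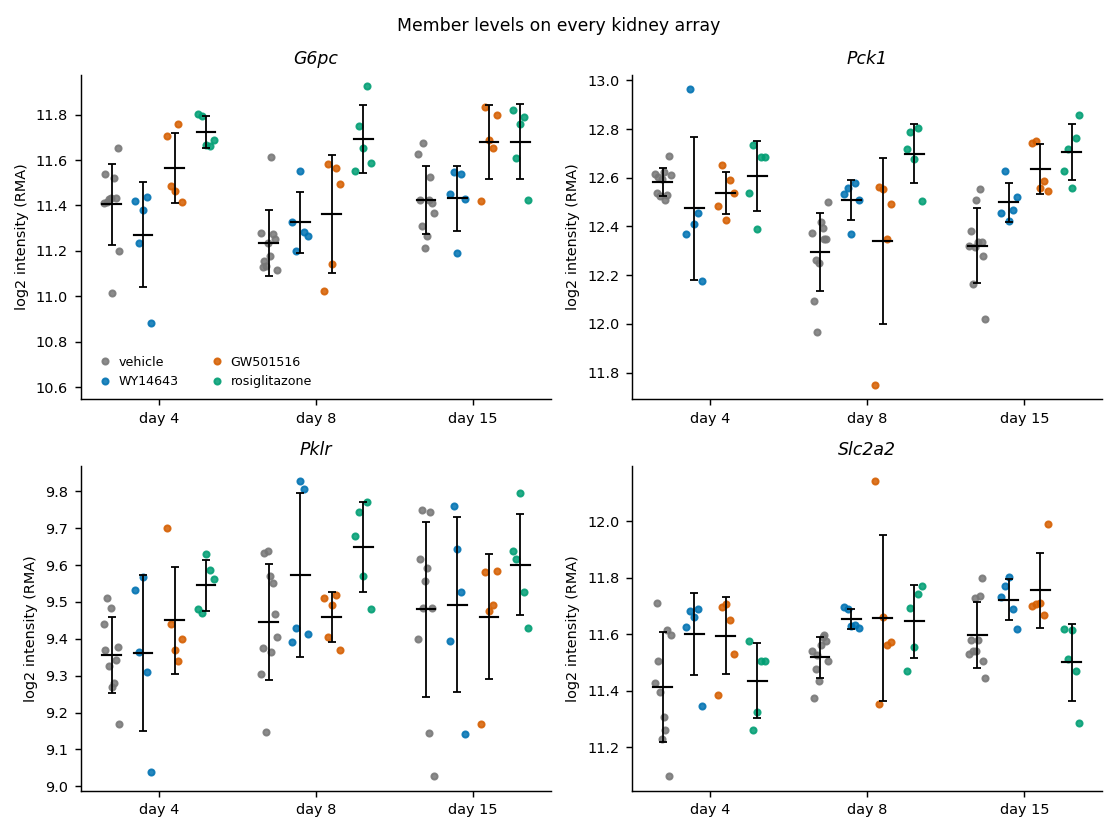
Log2 intensity (RMA, vertical axes) of the 4 genes on each of the 75 kidney arrays, by day and compound; points are animals, horizontal bars the group mean and error bars the SD. Rosiglitazone kidneys sit above vehicle for G6pc on day 4 and for Pck1 on days 8 and 15, and the GW501516 day 8 array at 11.75 for Pck1 and 12.14 for Slc2a2 is the array that stands apart.

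Within animals, the change of G6pc in liver minus that in kidney was -1.16 ± 0.11 with GW501516, -0.77 ± 0.11 with rosiglitazone and -0.73 ± 0.11 with WY14643. The adjusted p was 4.06e-12, 8.67e-07 and 3.59e-06 (limma on 75 animals), and 8.18%, 7.22% and 4.69% of all genes differed between the organs. The liver-minus-kidney value lay below the same-day vehicle mean in 15, 13 and 14 of 15 animals. With the clock components of both organs as covariates the rosiglitazone difference was -0.59 and was no longer called (adjusted p = 0.716). Of the 12 pairs of a gene and a compound, 6 had opposite signs in liver and kidney, and 2 of them were called in both organs: G6pc with GW501516 and G6pc with rosiglitazone. No pair was called with the same sign in both. Of all genes 43.7% had opposite signs with WY14643, 44.4% with GW501516 and 44.6% with rosiglitazone, and 0.0605%, 0.176% and 0.055% also were called in both organs, so the 6 of 12 is near the background.

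**Figure D3:**
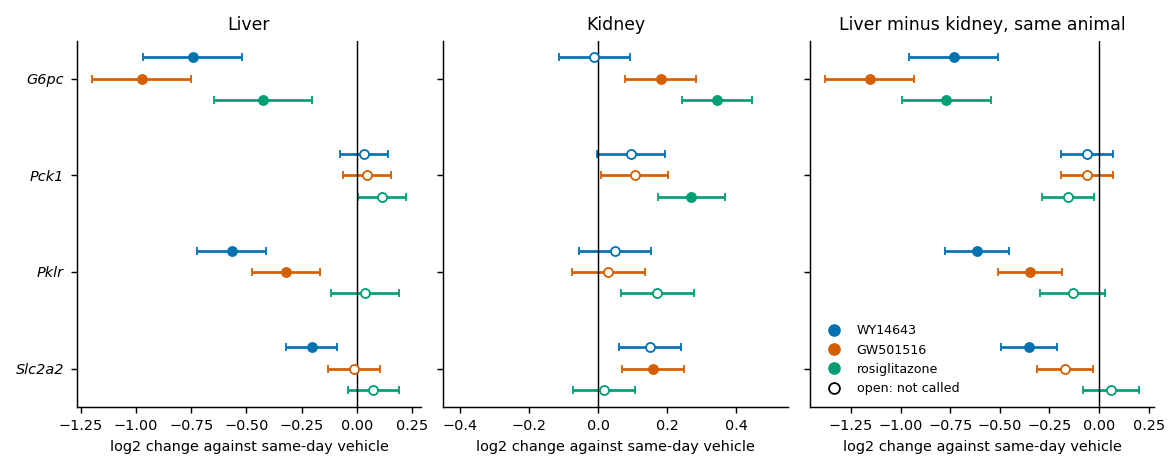
Log2 change against same-day vehicle, averaged over days 4, 8 and 15, with 95% intervals, in liver, in kidney and as liver minus kidney within animals; filled points are called (adjusted p under 0.05) and each panel has its own horizontal scale. G6pc is at -0.97 to -0.43 in liver and at -0.012 to 0.34 in kidney, while Pck1 is within 0.11 of 0 in liver.

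Pck1, which shares hormonal control with G6pc in liver, was not called over the days with any compound. Its liver change was 0.033 ± 0.054 with WY14643, 0.046 ± 0.054 with GW501516 and 0.11 ± 0.054 with rosiglitazone, none of them called (adjusted p = 0.793, 0.681 and 0.149). The 95% intervals ran from -0.074 to 0.14, from -0.062 to 0.15 and from 0.0065 to 0.22. For the probe set used, a fall of the size seen in G6pc thus lies outside each. Liver levels ran from 12.81 to 13.72 over the 45 treated arrays, against 12.71 to 13.59 in vehicle. The single call was a rise of 0.34 with rosiglitazone on day 8 (adjusted p = 0.0102), when treated livers read 13.38 to 13.72. Vehicle livers stood at 13.19 ± 0.24 that day, lower than on day 4 (13.39 ± 0.10) and day 15 (13.45 ± 0.09; SD, n = 10 each).

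The probe sets of Pck1 did not give 1 answer in liver. A second probe set, with a mean log2 level of 11.87, rose by 0.31 with rosiglitazone (adjusted p = 0.0375). The third, at 5.84, read -0.30 (adjusted p = 0.163). The probe set used here stood at 13.38, and which of them best reports the transcript was not tested.

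In kidney Pck1 rose with rosiglitazone by 0.27 ± 0.049, to 121% of vehicle (adjusted p = 3.01e-04), with 13 of 15 kidneys above the same-day vehicle mean. The second probe set gave a larger rise, 0.60 ± 0.16 (adjusted p = 0.0371), and the third read 0.19 ± 0.15 and was not called (adjusted p = 0.885). On day 8 rosiglitazone kidneys read 12.51, 12.68, 12.72, 12.79 and 12.80, all above vehicle (11.97 to 12.50), and on day 15 they read 12.56, 12.63, 12.72, 12.76 and 12.86, all above vehicle (12.02 to 12.55). On day 4 they read 12.39 to 12.73 against 12.51 to 12.69 and did not separate. The rises of 0.40 on day 8 and 0.38 on day 15 were called (adjusted p = 0.00524 and 0.0259), and so was one of 0.32 with GW501516 on day 15 (adjusted p = 0.0383), a day when 1.33% of genes were called with that compound. The treated means differed little by day (12.61, 12.70 and 12.71), while vehicle stood at 12.58 ± 0.06 on day 4, 12.30 ± 0.16 on day 8 and 12.32 ± 0.15 on day 15.

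Over the 3 days the kidney change of Pck1 was 0.11 ± 0.049 with GW501516 (adjusted p = 0.197) and 0.094 ± 0.049 with WY14643 (adjusted p = 0.559), neither called. Without the array that stands apart, where Pck1 read 11.75, the GW501516 value was 0.15 and was called (adjusted p = 0.0166). The rosiglitazone rise lost its call with the clock components as covariates (0.11, adjusted p = 0.737) and without day 8 (0.20, adjusted p = 0.0795). Pck1 is also a gene of fat cells: 3 of 6 adipocyte markers were measured, and their mean ran over 2.89 to 6.87 in rosiglitazone kidneys and 2.87 to 6.38 in vehicle kidneys. Across the 75 kidneys Pck1 and that mean had r = 0.059 (Spearman's rho = 0.047, permutation p = 0.616 and 0.690, adjusted 0.711 and 0.753; r = 0.088 without the 2 outermost arrays). The liver-minus-kidney difference of Pck1 was not called with any compound (-0.061, -0.060 and -0.16 with WY14643, GW501516 and rosiglitazone).

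Pklr fell in liver with WY14643 and GW501516, and was not called with rosiglitazone. The fall was 0.57 ± 0.077 with WY14643, to 67.5% of vehicle, and 0.32 ± 0.077 with GW501516, to 80.1% (adjusted p = 6.24e-08 and 0.00184). With rosiglitazone the change was 0.038 ± 0.077, with a 95% interval from -0.12 to 0.19. All 15 WY14643 livers and 14 of 15 GW501516 livers lay below the same-day vehicle mean, against 5 of 15 with rosiglitazone.

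WY14643 livers read 11.48, 12.79, 12.94, 13.00 and 13.15 for Pklr on day 4 (vehicle 13.05 to 13.63, median 13.46). On day 8 they read 12.83, 13.05, 13.20, 13.25 and 13.30, all below vehicle (13.40 to 13.69). On day 15 they read 12.25, 13.09, 13.17, 13.33 and 13.35 (vehicle 13.22 to 13.70). Single low arrays on days 4 and 15 widened the spread. Without both liver arrays that stand apart, which are of day 4, the fall was 0.46 and still called. The low day 15 array stayed in that fit, and the day 15 arrays at 13.33 and 13.35 lay inside the vehicle range. Leaving out any 1 array at a time kept the call, with values from -0.61 to -0.47. WY14643 was called on each day, at -0.74, -0.43 and -0.53 (adjusted p = 1.26e-04, 0.0410 and 0.0122). GW501516 livers read 13.10 to 13.39, 12.96 to 13.58 and 12.94 to 13.31 on days 4, 8 and 15. Their changes of -0.19, -0.34 and -0.42 were not called on single days, the last with an adjusted p of 0.0514.

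The size of the Pklr change depended on the probe set. The other pair of probe sets, at mean liver levels of 10.32 and 8.65 against 13.34 for the one used, gave -1.16 and -1.02 with WY14643 and -0.75 with GW501516 for both, all called. With rosiglitazone they gave 0.063 and 0.028. With WY14643 and GW501516 the probe set of highest mean thus gave the smallest fall of the 3; the cause was not tested. Without day 8 the GW501516 value from the main probe set was -0.31 and no longer called (adjusted p = 0.0674).

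In kidney, where Pklr was dimmer, the probe set used did not give a call with any compound. The values were 0.17 ± 0.053 with rosiglitazone (adjusted p = 0.0902; 14 of 15 kidneys above the same-day vehicle mean), 0.049 ± 0.053 with WY14643 and 0.029 ± 0.053 with GW501516. The dimmest of the 3 probe sets was called lower with GW501516 (-0.17 ± 0.055, adjusted p = 0.0427), and the middle one read 0.034 ± 0.052. Rosiglitazone kidneys read 9.43 to 9.80 over the 3 days and vehicle 9.03 to 9.75, so the ranges overlapped. Within animals the liver-minus-kidney difference was called with WY14643 (-0.62 ± 0.081, adjusted p = 8.18e-08) and GW501516 (-0.35 ± 0.081, adjusted p = 0.00247), and the value lay below the vehicle mean in 15 of 15 animals with each. The GW501516 difference lost its call with the clock components as covariates (-0.38, adjusted p = 0.191) and without day 8 (-0.35, adjusted p = 0.0633). With rosiglitazone it was -0.13 ± 0.081 and not called.

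Slc2a2, averaged over the days, was called with a single compound in liver and another in kidney. In liver it fell by 0.20 ± 0.058 with WY14643 (adjusted p = 0.0117), to 86.8% of vehicle, and the changes with GW501516 (-0.013 ± 0.058) and rosiglitazone (0.076 ± 0.058) were not called. The fall rested on day 4: WY14643 livers read 11.37, 12.62, 12.71, 12.90 and 12.91 against 12.78 to 13.03 in vehicle, a change of -0.45 (adjusted p = 0.00213). On days 8 and 15 the changes were -0.054 and -0.11, neither called. The array at 11.37 is 1 of the 2 liver arrays that stand apart, the one that also gave the lowest Pklr value of the day. Without both arrays the WY14643 change was -0.091 and was not called (adjusted p = 0.0714). In that array the mean of the 8 pericentral markers was the lowest of 75 livers (10.49 against a median of 11.34). The mean of the 6 periportal markers ranked 4 from the lowest (11.24 against 11.78), and that of the 16 clock genes was the lowest (8.82 against 9.31). The mean of the 5 Kupffer cell markers was nearly the highest (10.76 against 9.76). The part of these markers in the result was not tested.

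In kidney Slc2a2 rose with GW501516 by 0.16 ± 0.045 (adjusted p = 0.0197), to 112% of vehicle, with 13 of 15 kidneys above the same-day vehicle mean. With WY14643 it read 0.15 ± 0.045, with 14 of 15 kidneys above, and was not called (adjusted p = 0.0722). On day 8 the WY14643 kidneys read 11.62, 11.63, 11.63, 11.69 and 11.70, all above vehicle (11.37 to 11.60). With rosiglitazone the change was 0.017 ± 0.045. The GW501516 call ended without the kidney array that stands apart, where Slc2a2 read 12.14 (0.12, adjusted p = 0.0602), and without GW501516 day 15 replicate 5 (0.14, adjusted p = 0.0591). The WY14643 change was called without that first array (0.15, adjusted p = 0.0201). In that array the mean of the 9 proximal tubule markers was the lowest of 75 kidneys, 11.20 against a median of 12.12. The means of loop of Henle (8.71 against 9.985), distal tubule (9.35 against 9.94) and collecting duct markers (6.63 against 7.11) were lowest too. Those of Kupffer cell (4.27 against 2.82) and heart muscle markers (3.67 against 3.34) were the highest. The part of these markers in the result was not tested.

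The liver-minus-kidney difference of Slc2a2 was -0.35 ± 0.070 with WY14643 and was called (adjusted p = 4.30e-04), with 15 of 15 animals below the vehicle mean. Without both liver arrays that stand apart it was -0.26 and still called (adjusted p = 4.67e-04). With GW501516 it was -0.17 ± 0.070 (adjusted p = 0.126), and it was called without the 2 animals of those arrays, at the same value (adjusted p = 0.0126). With rosiglitazone it was 0.059 ± 0.070.

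Between compounds at the same dose and days, 12 differences per organ were tested (4 genes by 3 pairs), with p adjusted over all genes. In liver 4 were called. Pklr was lower with WY14643 than with rosiglitazone by a log2 difference of -0.61 ± 0.089 and lower with GW501516 than with rosiglitazone by -0.36 ± 0.089 (adjusted p = 3.95e-07 and 0.0104). G6pc was lower with GW501516 than with rosiglitazone (-0.55 ± 0.13, adjusted p = 0.00602), and Slc2a2 lower with WY14643 than with rosiglitazone (-0.28 ± 0.067, adjusted p = 0.00142). Without both liver arrays that stand apart this Slc2a2 difference was -0.17 ± 0.038 and still called (adjusted p = 8.35e-04), and with the clock components as covariates it was -0.11 and not called (adjusted p = 0.721). Of all genes 17.6% differed between WY14643 and rosiglitazone, 3.59% between GW501516 and rosiglitazone and 4.55% between WY14643 and GW501516. No member was called between WY14643 and GW501516 in liver by limma, with 2 of 4 at an unadjusted p under 0.05 (Pklr and Slc2a2). The 95% interval of that difference ran from -0.028 to 0.49 for G6pc, from -0.43 to -0.068 for Pklr, from -0.33 to -0.057 for Slc2a2 and from -0.14 to 0.11 for Pck1. Without both arrays that stand apart it was -0.14 for Pklr, -0.078 for Slc2a2, 0.37 for G6pc and 0.031 for Pck1, none called (adjusted p = 0.353, 0.335, 0.0922 and 0.916).

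In kidney 1 of the 12 differences was called: G6pc was lower with WY14643 than with rosiglitazone by -0.36 ± 0.059 (adjusted p = 3.29e-05). The share of all genes called was 1.95% for that pair, 1.34% for WY14643 against GW501516 and 1.12% for GW501516 against rosiglitazone. G6pc lay -0.19 ± 0.059 apart between WY14643 and GW501516 and -0.16 ± 0.059 between GW501516 and rosiglitazone, neither called (adjusted p = 0.0778 and 0.171). In both organs G6pc read highest with rosiglitazone among the 3 compounds. For Pck1 the intervals of the pairs with rosiglitazone ran from -0.29 to -0.063 (WY14643) and from -0.28 to -0.051 (GW501516).

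Whether the changes grew with dosing was tested as day 15 minus day 4. By limma none of 12 such differences was called in liver and none of 12 in kidney, with 2 and 3 at an unadjusted p under 0.05. The share of all genes called was 0.753%, 0% and 0.132% in liver and 0.022%, 0.011% and 0% in kidney with WY14643, GW501516 and rosiglitazone. The liver pair were G6pc with rosiglitazone (-0.75 ± 0.27) and Slc2a2 with WY14643 (0.34 ± 0.14, back towards vehicle). The kidney ones were all Pck1, at 0.36 ± 0.12 with both GW501516 and rosiglitazone and 0.29 ± 0.12 with WY14643. Vehicle Pck1 in kidney stood at 12.58 on day 4 and 12.32 on day 15. Treated means on these days were 12.54 and 12.64 with GW501516, 12.61 and 12.71 with rosiglitazone, and 12.47 and 12.50 with WY14643.

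Single days in kidney gave few other calls. With WY14643 no member was called by limma on any day, with 1 of 4 at an unadjusted p under 0.05 each day, against 0.275%, 0.506% and 0.544% of genes on days 4, 8 and 15. With GW501516 no member was called on day 4 or 8, with 1 and 0 at an unadjusted p under 0.05, when 0.17% and 9.36% of genes were.

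Animals of 1 group also differed from each other, and these deviations from the group mean show which genes moved with the members. Over 75 livers Pklr and Slc2a2 had r = 0.79, which fell to 0.56 without the 2 outermost arrays (rho = 0.48). G6pc and Pklr had r = 0.46 (rho = 0.42), and G6pc and Pck1 r = 0.28 (rho = 0.25). Over 75 kidneys no pair of members passed r = 0.26. These and the next values describe genes picked for their likeness, so they carry no test. The 3 genes most like each member, by Pearson's r over these deviations, were Elovl5 (0.60), Rnf125 (0.56) and C730049O14Rik (0.56) for G6pc in liver and Slc25a16 (0.68), Zhx3 (0.66) and Slc8b1 (0.65) for Pck1. For Pklr they were its neighbouring gene Hcn3 (0.86), Slc2a2 (0.79) and Gamt (0.78). For Slc2a2 they were Car3 (0.90), Inmt (0.90) and Hsd3b5 (0.89), with Spearman's rho of 0.46, 0.53 and 0.31, so these rest largely on few arrays; without the 2 outermost they were 0.69, 0.69 and 0.67.

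In kidney the closest genes were Sesn2 (0.64), Cxxc5 (0.61) and Slc13a2 (0.60) for G6pc and Ncoa4 (0.71), Entpd1 (0.70) and Svopl (0.69) for Pck1. They were Tmem9 (0.68), Sh2b3 (0.61) and Dcxr (0.60) for Pklr and Ccdc32 (0.64), Necab1 (0.64) and Cryzl1 (0.63) for Slc2a2. No gene was in the lists of both organs. Between liver and kidney of the same animal, deviations of Pklr had r = 0.31, of Pck1 0.26, of G6pc 0.25 and of Slc2a2 0.14 (rho = 0.29, 0.18, 0.23 and 0.30; permutation p for r = 0.0084, 0.0282, 0.0268 and 0.221, adjusted over 60 correlations 0.0210, 0.0626, 0.0618 and 0.378). Without the 2 outermost animals r was 0.30, 0.13, 0.20 and 0.30. Within liver, Slc2a2 had r = -0.60 with the first clock component (rho = -0.49, both at permutation p = 1.0e-05, the smallest that 100000 permutations give; adjusted 6.0e-05 and 5.5e-05). It was -0.52 without the 2 outermost arrays. Pklr had r = -0.43 (rho = -0.17, permutation p = 3.9e-04 and 0.142, adjusted 0.0013 and 0.267), which was -0.26 without the 2 outermost arrays.

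In heart and skeletal muscle, which do not release glucose, the members' levels followed markers of other cells. In heart Pck1 was called with rosiglitazone at 1.45 ± 0.48 (adjusted p = 0.0479), the only 1 of 12 changes called. The share of all genes called there was 7.51% with rosiglitazone, 4.17% with GW501516 and 1.44% with WY14643. Rosiglitazone hearts read 5.19, 6.89, 7.08, 9.45 and 13.11 on day 4, 7.48, 8.86, 9.26, 9.33 and 10.01 on day 8, and 8.09, 9.04, 9.15, 9.47 and 10.13 on day 15. Vehicle hearts ran from 4.06 to 8.96 on day 4, 6.13 to 8.75 on day 8 and 7.22 to 10.43 on day 15. Above every vehicle heart of the same day lay 2 of 5 rosiglitazone hearts on day 4, 4 of 5 on day 8 and 0 of 5 on day 15. Of the 15 rosiglitazone hearts, 13 lay above the same-day vehicle mean. The array at 13.11 is the heart array that stands apart, and its adipocyte marker mean of 11.02 was the highest of 75 hearts (median 6.19). Its means of Kupffer cell (8.45 against a median of 6.59), liver periportal (8.66 against 5.41) and collecting duct markers (5.63 against 5.13) were highest too. Those of heart muscle (14.46 against 14.59) and loop of Henle markers (3.63 against 3.905) were the lowest. The part of these other markers in the result was not tested. Without that array the change was 1.05 and not called (adjusted p = 0.156), and the call ended in 35 of the 75 fits that left out 1 heart array.

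The 7 hepatocyte markers measured in heart had a mean that ran over 6.31 to 11.63 in vehicle, 6.16 to 11.16 with WY14643, 5.99 to 11.31 with GW501516 and 6.34 to 11.67 with rosiglitazone. Albumin (Alb) averaged 10.62 in vehicle hearts, 3.27 above the array median, and Ttr lay 3.47 above it. Relative to that median Apoa1 lay at 2.35, Cps1 at 1.23, Fgb at 1.22, Ahsg at 0.77 and Tat at -1.0037. Over 75 hearts the deviations of Pklr had r = 0.86 with that mean, Slc2a2 0.80, G6pc 0.58 and Pck1 0.50 (rho = 0.86, 0.83, 0.71 and 0.62; permutation p at most 2.0e-05, adjusted at most 1.0e-04). Without the 2 outermost arrays r was 0.86, 0.79, 0.60 and 0.49. The adipocyte mean ran over 4.70 to 7.51 in vehicle hearts, 5.27 to 8.69 with WY14643, 5.01 to 10.21 with GW501516 and 4.85 to 11.02 with rosiglitazone. The heart at 10.21, GW501516 day 15 replicate 1, read 12.49 for Pck1, and its proximal tubule marker mean was 8.10 (median of hearts 4.97). Correlations of the members with proximal tubule markers, and in heart with adipocyte markers, were run as well and are not given here. With the hepatocyte and adipocyte means as covariates the rosiglitazone change of Pck1 was 0.88 and was not called (adjusted p = 0.108).

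In skeletal muscle none of 12 mean changes was called by limma, and none had an unadjusted p under 0.05, against 0.104%, 0.857% and 1.65% of all genes with WY14643, GW501516 and rosiglitazone. By single days 1 change was called, a rise of Slc2a2 by 1.85 ± 0.54 with WY14643 on day 4 (adjusted p = 0.0409), when 3.34% of all genes were called with that compound, 0.0165% with GW501516 and 0% with rosiglitazone. Those WY14643 muscles read 1.65, 2.28, 3.97, 4.25 and 8.25 against 1.67 to 2.50 in vehicle, so 3 of 5 lay above the vehicle range. The array at 8.25 is the muscle array that stands apart, with a hepatocyte marker mean of 11.23, the highest of the 5, which otherwise ran from 5.53 to 7.65. Without it the change was 0.81 ± 0.48 and was not called (adjusted p = 0.397). Pck1 there ran from 5.28 to 12.10 in vehicle and followed the adipocyte marker mean with r = 0.94 (rho = 0.95, both at permutation p = 1.0e-05, adjusted 6.0e-05 and 5.5e-05; r = 0.95 without the 2 outermost arrays). That mean ran over 6.43 to 11.04 in vehicle, 6.92 to 11.57 with WY14643, 6.82 to 11.02 with GW501516 and 6.87 to 11.37 with rosiglitazone, and Adipoq lay 5.58 above the array median. Slc2a2, Pklr and G6pc followed the hepatocyte mean (r = 0.83, 0.77 and 0.70; rho = 0.72, 0.68 and 0.56; all at permutation p = 1.0e-05). Without the 2 outermost arrays r was 0.78, 0.72 and 0.57. Its range was 3.41 to 9.51 in vehicle muscle, 3.34 to 11.23 with WY14643, 3.52 to 7.0 with GW501516 and 3.27 to 7.23 with rosiglitazone.

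**Figure D4:**
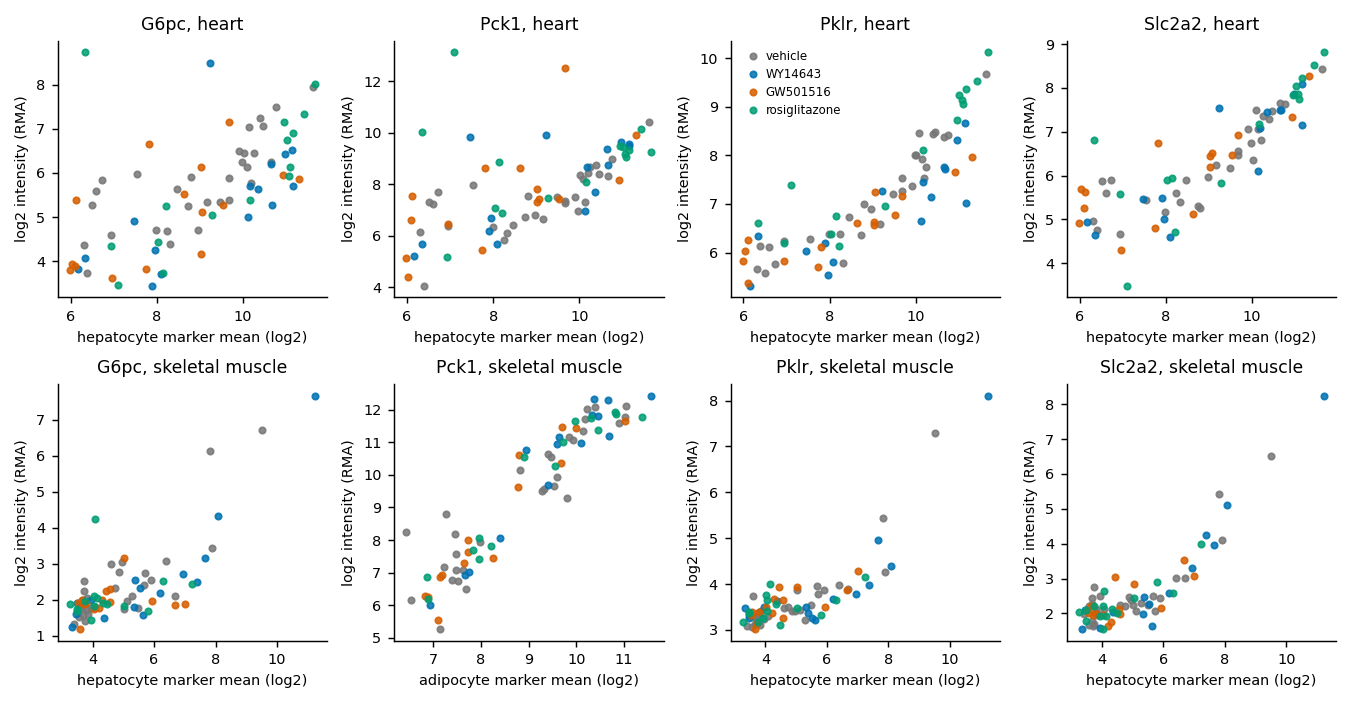
Log2 intensity (vertical axes) of each gene against the mean log2 level of 7 hepatocyte markers, or of 3 adipocyte markers for Pck1 in skeletal muscle (horizontal axes), on 75 heart arrays (top) and 75 skeletal muscle arrays (bottom); points are arrays coloured by compound. In heart the Pklr and Slc2a2 points rise along 1 band with all compounds on it, and in muscle Pck1 rises along the adipocyte mean.

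The other genes of glucose handling give the setting of these changes. Of the further genes measured from 6 lists, 17 were called in liver with WY14643 (7 higher, 10 lower), 23 with GW501516 (11 and 12) and 27 with rosiglitazone (20 and 7). In kidney 4, 12 and 2 were called. List medians in liver lay between -0.10 and 0.13, against -0.024 to -0.0079 for all genes; the highest was that of transcription regulators with rosiglitazone (0.13). The lists were drawn up with earlier results of these arrays known, and the number of genes measured per list is given below. Of all genes 11.2%, 13.9% and 16.2% were called in liver with WY14643, GW501516 and rosiglitazone. The share called within a list ran over 0% to 27.3%, 4% to 31.8% and 7.14% to 33.3%. In kidney it ran over 0% to 8%, 4.55% to 14.3% and 0% to 8%, against 1.74%, 6.79% and 1.52% of all genes. Lists thus lay on both sides of the background.

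**Figure D5:**
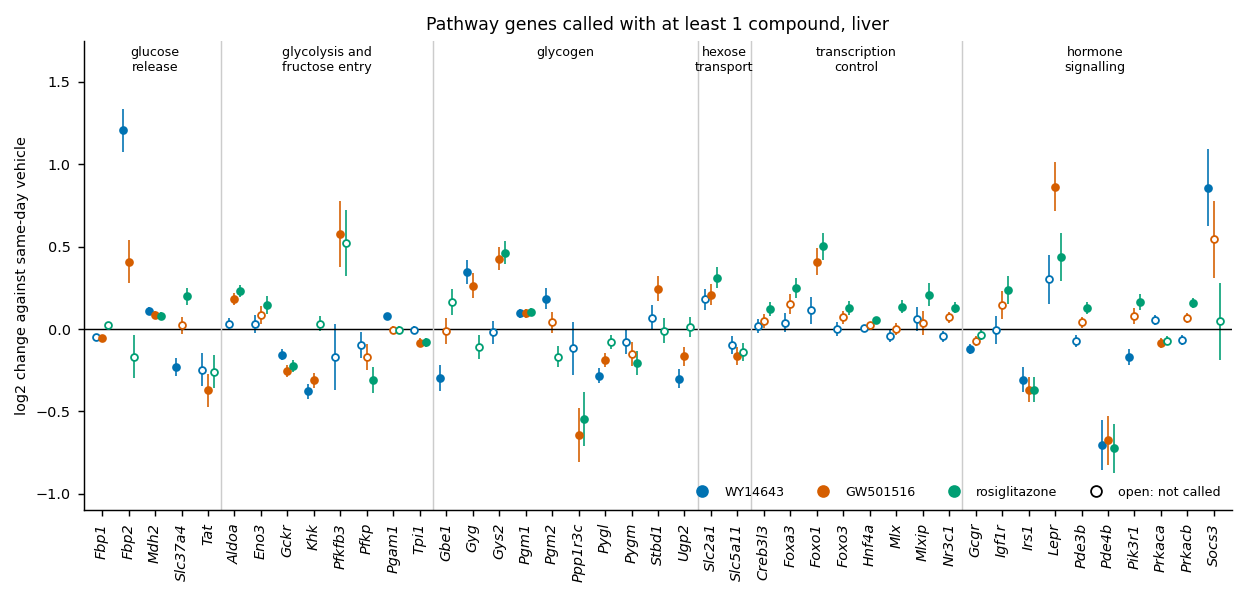
Log2 change against same-day vehicle, averaged over days (vertical axis), of the 43 pathway genes called in liver with at least 1 compound, grouped by list; bars are the SE, filled points are called and open points are not. Fbp2 is highest with WY14643 (1.21), and Irs1 and Pde4b are lower with all 3 compounds.

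Of 14 other genes of glucose release in liver, 2 rose and 1 fell with WY14643, 2 rose and 2 fell with GW501516, and 2 rose with rosiglitazone. Fbp2, a fructose bisphosphatase best known from muscle, rose by 1.21 ± 0.13 with WY14643 and 0.41 ± 0.13 with GW501516 from a low vehicle level of 5.15. Slc37a4, which carries glucose 6-phosphate to the phosphatase, fell by 0.23 ± 0.052 with WY14643 and rose by 0.20 ± 0.052 with rosiglitazone. Mdh2, a mitochondrial malate dehydrogenase, rose with all 3 (0.11, 0.087 and 0.080), and Tat, which breaks down tyrosine, fell by 0.37 ± 0.10 with GW501516. G6pc2 and G6pc3, relatives of G6pc picked out after their values were seen, were not called with any compound (-0.21 to 0.014).

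Of 22 genes of glycolysis and fructose entry, 3 were called with WY14643, 5 with GW501516 and 5 with rosiglitazone. Gckr, the protein that holds glucokinase in the nucleus, fell with each: by 0.16 ± 0.035 with WY14643, 0.25 ± 0.035 with GW501516 and 0.22 ± 0.035 with rosiglitazone, in 15 of 15 livers with each. Khk, ketohexokinase, the first enzyme of fructose use, fell by 0.38 ± 0.046 with WY14643 and 0.31 ± 0.046 with GW501516 and was not called with rosiglitazone (0.031), the same compounds that lowered Pklr. Pfkfb3, which makes the activator of phosphofructokinase, rose by 0.58 ± 0.20 with GW501516. With rosiglitazone Aldoa, an aldolase, rose by 0.23 ± 0.038 and Pfkp, a phosphofructokinase, fell by 0.31 ± 0.078, and Pgam1 rose by 0.079 ± 0.021 with WY14643.

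Of 22 glycogen genes, 6, 7 and 4 were called. Gys2, the liver glycogen synthase, rose by 0.43 ± 0.069 with GW501516 and 0.46 ± 0.069 with rosiglitazone, and Ppp1r3c, which targets a phosphatase to glycogen, fell by 0.64 ± 0.16 and 0.55 ± 0.16. With WY14643 Gyg, glycogenin, rose by 0.35 ± 0.073, while Gbe1, the branching enzyme, and Ugp2, which makes UDP-glucose, each fell by 0.30. Gyg rose by 0.26 ± 0.073 with GW501516 as well, and Pygm, the muscle phosphorylase, fell by 0.21 ± 0.073 with rosiglitazone.

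Of 14 other hexose transporters, none was called with WY14643 by limma (3 at an unadjusted p under 0.05), 2 with GW501516 and 1 with rosiglitazone. Slc2a1, the broadly expressed GLUT1, rose by 0.21 ± 0.064 with GW501516 and 0.31 ± 0.064 with rosiglitazone, and Slc5a11 fell by 0.16 ± 0.053 with GW501516. Of 25 transcription regulators, none was called with WY14643 by limma (3 at an unadjusted p under 0.05), 1 rose with GW501516 and 8 rose with rosiglitazone, with none lower. Foxo1, a factor known to raise G6pc transcription, rose by 0.41 ± 0.082 with GW501516 and 0.50 ± 0.082 with rosiglitazone; a link to the G6pc values was not tested. Foxa3 (0.25 ± 0.059) and Mlxip (0.21 ± 0.071) also rose with rosiglitazone.

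Of 21 hormone signalling genes, 5, 4 and 7 were called. Pde4b, a phosphodiesterase that breaks down cAMP, fell by 0.70, 0.68 and 0.72 with WY14643, GW501516 and rosiglitazone (SE 0.15 each), and Irs1, an adaptor of the insulin receptor, by 0.31, 0.37 and 0.37 (SE 0.075 each). Lepr, the leptin receptor, rose by 0.87 ± 0.15 with GW501516 and 0.44 ± 0.15 with rosiglitazone, and Socs3, a brake on cytokine signalling, by 0.86 ± 0.23 with WY14643.

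In kidney the calls among these lists were fewer. Fbp2 rose there too, by 0.40 ± 0.090 with WY14643 and 0.36 ± 0.090 with GW501516. Foxo1 rose by 0.24 ± 0.045 with GW501516 and 0.20 ± 0.045 with rosiglitazone. Srebf1, a regulator of lipid synthesis, rose by 0.31 ± 0.072 with WY14643 and 0.45 ± 0.072 with GW501516, and Klf10 by 0.31 ± 0.081 with WY14643 and 0.29 ± 0.081 with rosiglitazone. With GW501516 Irs2 rose by 0.51 ± 0.14, Epm2a by 0.31 ± 0.083, Creb3l3 by 0.27 ± 0.077, Gys1 by 0.27 ± 0.057, Pgam2 by 0.25 ± 0.074, Slc2a8 by 0.18 ± 0.050 and Insr by 0.18 ± 0.042. Sirt1 fell by 0.22 ± 0.070 and Slc2a1 by 0.18 ± 0.064 with GW501516, and Pfkfb4 by 0.30 ± 0.084 with WY14643. With rosiglitazone Foxo1 and Klf10 were the 2 called.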

How the data were processed

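RNA of 4 tissues from 75 mice was labelled from 100 ng and hybridised to 300 Affymetrix mouse expression arrays, per the labels' protocols. The authors deposited log2 intensities made with RMA in Partek (versions not given in the sources used here), per the submitters' processing notes. Array medians were 6.12 to 6.26 in liver, 5.05 to 5.38 in kidney, 7.27 to 7.44 in heart and 4.98 to 5.13 in skeletal muscle, so tissues were fitted separately. The number of arrays limits the precision. Of 45101 probe sets, 64 were controls, 34945 had 1 gene in the platform annotation, 932 several and 9160 none; 34741 were named by gene ID and 204 kept the annotated symbol. The probe set of highest mean stood for each of 18193 genes. limma 3.58.1 in R 4.3.3 (lmFit, eBayes with trend, 12 group means per tissue) gave log2 changes, with Benjamini-Hochberg adjustment over all genes, and was tested on simulated data first. Liver minus kidney was fitted on 1 difference per animal, by the mouse number in the labels: over liver and kidney the median r of an animal's deviations was 0.168 by mouse number and -0.027 against other animals of the group. Correlations used 100000 permutations in Python 3.11.15. The members, gene lists and tests were chosen with earlier results of these data known. Besides the members, the text names up to 3 called genes of largest change per list, organ and compound, the 3 genes most like each member in each organ, and marker or clock genes on which a result turns. Alternatives were other probe sets, their mean, other normalization, a dim-gene filter at the 40th percentile, no trend, array weights, clock or marker covariates, a replicate block, fewer groups, no day 8 and leaving out each array; leaving out the arrays that stand apart, together where there were 2 in liver, was added after seeing the data.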

Additional observations from a re-analysis of the deposited data

Results flagged for a closer look

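In 19 of 192 groups (a gene, tissue, compound and day), 1 array lay far from the rest of its group by Dixon's test, which chance does in about 1 of 20 groups. In liver these were G6pc in vehicle day 8 replicate 4 at 12.46, Pck1 in WY14643 day 4 replicate 5 at 12.81, and 4 others. Pklr read 11.48 and Slc2a2 11.37 in WY14643 day 4 replicate 2, and Pklr read 12.25 in WY14643 day 15 replicate 5 and 13.22 in vehicle day 15 replicate 10. In kidney they were G6pc in vehicle day 8 replicate 7 at 11.61, Pck1 in GW501516 day 8 replicate 1 at 11.75, Pklr in GW501516 day 4 replicate 1 at 9.70 and in GW501516 day 15 replicate 1 at 9.17, and Slc2a2 in GW501516 day 15 replicate 5 at 11.99 and in WY14643 day 4 replicate 5 at 11.35. In heart both were in vehicle day 15 replicate 5, where G6pc read 7.96 and Pck1 10.43. In skeletal muscle G6pc read 7.67 in WY14643 day 4 replicate 3, 4.25 in rosiglitazone day 4 replicate 3 and 3.15 in GW501516 day 15 replicate 2. Slc2a2 read 3.99 there in rosiglitazone day 4 replicate 5 and 3.03 in GW501516 day 8 replicate 3.

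The change differed between liver and kidney by the test within animals in 6 of 12 cases. Of all genes 4.69%, 8.18% and 7.22% differed so with WY14643, GW501516 and rosiglitazone. For G6pc the difference was -0.73 with WY14643, -1.16 with GW501516 and -0.77 with rosiglitazone. For Pklr it was -0.62 with WY14643 and -0.35 with GW501516, and for Slc2a2 it was -0.35 with WY14643.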

How the results depend on the processing

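Over the 36 changes in liver, in kidney and between them, and heart Pck1 with rosiglitazone, alternatives other than leaving out single arrays kept direction and side of the threshold in 321 cases, lost the call in 21, gained it in 10 and turned the sign in 21. The falls of G6pc in liver with WY14643 and GW501516 kept their call under every alternative run. With clock components as covariates these lost their call: G6pc with rosiglitazone in liver (-0.31) and between organs (-0.59), G6pc with GW501516 in kidney (0.21), Pck1 with rosiglitazone in kidney (0.11) and Pklr with GW501516 between organs (-0.38). Slc2a2 with WY14643 in kidney gained one (0.17). Signs turned there for Pck1 with GW501516 (-0.030), Pklr (-0.023) and Slc2a2 (-0.084) with rosiglitazone in liver, Pklr with GW501516 in kidney (-0.023) and Slc2a2 with rosiglitazone between organs (-0.18). They also turned for the pairs WY14643 minus GW501516 of Pck1 in liver (0.056) and kidney (0.044) and of Slc2a2 in liver (0.0043), and WY14643 minus rosiglitazone of Pck1 in liver (0.014). Without day 8 calls were lost for G6pc with rosiglitazone (-0.36) and Pklr with GW501516 (-0.31) in liver, Pck1 with rosiglitazone (0.20) and Slc2a2 with GW501516 (0.17) in kidney, and Pklr with GW501516 between organs (-0.35); Pck1 with WY14643 in liver (-0.055) and Slc2a2 with rosiglitazone in kidney (-0.038) turned. Of the other probe sets, the dimmest one gave Pck1 -0.24 with WY14643 and -0.30 with rosiglitazone in liver and 0.19 with rosiglitazone in kidney, and the middle one gave 0.31 with rosiglitazone in liver, called. In kidney Pklr read -0.015 (middle) and -0.037 (dimmest) with WY14643 and -0.17 (dimmest, called) with GW501516. The mean of all probe sets gave -0.028 for Pck1 with WY14643 in liver, and for Pklr in kidney -0.0011 with WY14643 and -0.037 with GW501516; for Pklr in liver it gave -0.92 with WY14643 and -0.61 with GW501516. Replicate numbers do not pair the animals (345 pairs of arrays per organ, median r 0.002 in liver and 0.003 in kidney). With the replicate block calls were lost for Slc2a2 with WY14643 in liver (-0.20) and for G6pc (0.18) and Slc2a2 (0.17) with GW501516 in kidney, and Pklr turned with rosiglitazone in liver (-0.033) and with GW501516 in kidney (-0.012). Slc2a2 with WY14643 in liver lost its call with marker covariates (-0.12), array weights (-0.12), the compound and vehicle alone (-0.20) and without both liver arrays that stand apart (-0.091). In kidney it gained one with marker covariates (0.18), array weights (0.14) and the compound and vehicle alone (0.15). Marker covariates turned Pklr with rosiglitazone in liver (-0.031) and G6pc with WY14643 in kidney (0.057), as array weights did the latter (0.0019). Array weights gained calls for Pck1 with GW501516 (0.15) and Pklr with rosiglitazone (0.17) in kidney. The compound and vehicle alone gained them for Slc2a2 in liver (0.076) and Pklr in kidney (0.17) with rosiglitazone, and lost Slc2a2 with GW501516 in kidney (0.16), as median centring did (0.14). Without both liver arrays that stand apart, the organ difference of Pck1 with WY14643 turned (0.0044) and that of Slc2a2 with GW501516 was called (-0.17). Heart Pck1 with rosiglitazone was 0.88 with both marker means, not called. The cause of these changes was not tested. Leaving out 1 array at a time changed no call of the 12 liver means. Ranges where a call or sign changed were -0.025 to 2.0e-04 for Slc2a2 with GW501516 in liver, -0.031 to 0.020 for G6pc with WY14643 in kidney and 0.087 to 0.15 for Pck1 with GW501516 in kidney. They were 0.14 to 0.17 for Slc2a2 with WY14643 in kidney, where leaving out WY14643 day 4 replicate 5 (0.17), vehicle day 4 replicate 2 (0.16) or GW501516 day 8 replicate 1 (0.15) gave a call. They were 0.12 to 0.18 for Slc2a2 with GW501516 in kidney, -0.19 to -0.13 for its organ difference, called without WY14643 day 4 replicate 2 (-0.17), and 1.05 to 1.71 for heart Pck1 with rosiglitazone.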
